A study of Mus musculus with 16 samples.

Results

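Mouse CD4+ T cells that received a synthetic miR-24 were compared, gene by gene, with the same kind of cells that received a synthetic miR-27a. The comparison was defined by the sample titles: the 4 libraries titled miR-24 against the 4 titled miR-27a, 8 of the 16 libraries of the series. All cells came from C57BL/6 mice labelled Dgcr8f/f Tbet-/- CD4-cre, in which the Cd4 promoter drives a Cre recombinase that deletes floxed Dgcr8 in T cells and Tbx21, the gene of the Th1 transcription factor T-bet, is missing. The sorted cells were RosaYFP+, a reporter of Cre activity, and numbered 150000 to 800000 per sample. In all groups, they had been stimulated with antibodies to CD3 and CD28 and 10 U/ml of IL-4 for 3 days and then kept for 2 days in IL-2 at 20 U/ml. A mimic, which is a double-stranded synthetic microRNA, was delivered at 500 nM on day 1 and again on day 4, and its sequence defined the groups. The series holds a further 4 libraries with a control mimic and 4 with miR-23a. They enter below as levels set beside the result and in the alternative fits over all 16 libraries, and not in the main fit. The mouse behind each library is not given in the sources used here, so the p-values measure the spread between these libraries, which may be partly technical.

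MicroRNAs are cut from hairpin transcripts by Drosha with its partner DGCR8 and then by Dicer, and are loaded into Argonaute proteins. They pair through the seed, the bases near their 5′ end, with sites that lie mostly in 3′ untranslated regions (UTRs), and the paired messenger RNA is translated less and degraded faster. miR-24 and miR-27a are made from one cluster of hairpins that also holds miR-23a, and both have been studied as inhibitors of the Th2 programme, the set of cytokines and regulators by which helper T cells drive allergic and anti-helminth responses. Cells without DGCR8 make few microRNAs of their own, which leaves the added mimic with little competition.

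The 2 microRNAs have different seeds, and their mature sequences are shown to make that visible, from RefSeq on GRCm38.p6, with bases 2 to 8 in capitals. The labels do not state which arm the mimics copy, so the 3p arms were taken from general knowledge. On the plus strand, miR-24-3p lies at chr8:84208875-84208896 (hairpin gene Mir24-2), with an identical copy at chr13:63301251-63301272 (Mir24-1), and miR-27a-3p at chr8:84208727-84208747 (Mir27a).
mmu-miR-24-3p: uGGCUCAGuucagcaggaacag
mmu-miR-27a-3p: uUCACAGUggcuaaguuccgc
The full seed match followed by an A, called an 8mer site, is CTGAGCCA for miR-24 and ACTGTGAA for miR-27a. The next sequences are the sites, in capitals, in 7 of the 10 genes with the smallest p among those that held an 8mer of one microRNA and were called lower where that microRNA had been given. They are from the longest GENCODE M21 3′ UTR of each gene, on GRCm38, the assembly of mm10, and the coordinates are those of the 8 capital bases.
Dgkk, miR-24 site, chrX:6945980-6945987, plus strand: gacatccacttCTGAGCCAggccacagaag
S1pr1, miR-24 site, chr3:115711513-115711520, minus strand: ttgattttgcaCTGAGCCAaaggtctagca
Plxnc1, miR-24 site, chr10:94791438-94791445, minus strand: aaacgcaaaggCTGAGCCAcagctttagct
Plscr1, miR-27a site, chr9:92271814-92271821, plus strand: ttaaggttttcACTGTGAAtttgggaaaac
Tmsb10, miR-27a site, chr6:72957500-72957507, minus strand: ccacaagctgcACTGTGAAacccgggcact
Med12l, first of 2 miR-27a sites, chr3:59316066-59316073, plus strand: tagtcaagcatACTGTGAAtagattgtcta
Hilpda, miR-27a site, chr6:29275241-29275248, plus strand: gttgtggtttgACTGTGAAgacagagggtg

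The miR-24 libraries held 5863004, 11427485, 13220646 and 10216730 reads in genes, and the miR-27a libraries 2972976, 2120408, 13714841 and 6289783, in the order of replicates 1 to 4. Of 14 library measures, 3 did not overlap between the groups: the share of reads without a unique place in the genome (35.4% to 44.2% with miR-24 against 29.3% to 34.2%), the summed level of 9 CD4 T cell markers (2093 to 2430 CPM, counts scaled to library size, against 2603 to 3025) and that of 9 dendritic cell markers (62.6 to 104 CPM against 35.5 to 48.0). Each had a two-sided exact permutation p of 0.0286, the smallest that 4 against 4 allows, and 0.133 after Benjamini-Hochberg adjustment over the 14. The dendritic sum came mostly from Batf3, Bst2 and Xcr1; Cd209a was at 0 in all 8 libraries, and Clec9a and Flt3 did not pass 0.70 CPM. The 6 regulatory T cell markers summed to 4454 to 6987 CPM with miR-24 and 2729 to 7398 CPM with miR-27a, mostly from Il2ra, while Foxp3 did not pass 3.95 CPM. Dgcr8, whose gene count cannot show the loss of an exon, had 41.7 to 51.9 CPM and 33.2 to 57.9 CPM. Tbx21 had 13 to 31 reads per miR-24 library and 0 to 12 reads per miR-27a library (adjusted p = 0.325, edgeR). The part of these library differences in the results was not tested, and in bulk RNA fewer cells of a type and less RNA per cell cannot be told apart.

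Between the 2 mimics, 148 of 11960 tested genes differed at an adjusted p under 0.05, 66 of them higher and 82 lower with miR-24 than with miR-27a. That is 1.24% of the genes tested, 0.552% higher and 0.686% lower, and 2110 genes had an unadjusted p under 0.05. The genes that were higher with miR-24 included the amino acid transporter Slc7a5, the phospholipid scramblase Plscr1, the desaturase Scd2 and the cytokine Il10. Those that were lower included the kinase Dgkk, the transcription factor Tcf7, the egress receptor S1pr1 and the sterol regulator Insig1. The test was edgeR's two-sided quasi-likelihood test with Benjamini-Hochberg adjustment, with the mimic and the replicate number as terms. Fold changes are log2, miR-24 minus miR-27a, with their SE, and n is 4 libraries per group throughout. Over all tested genes, the median was 0.024 and 52.1% were above 0.

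The libraries of both groups did not overlap for 112 of the 148 genes, against 1152 of all genes tested (9.63%). Of the 148, 147 differed in the direction of the call in all 4 same-numbered pairs, and the share of all genes with such agreement is not given here. The fit that called these genes used the same libraries and pairs, so neither count is separate support for the calls. The number of calls changed with the replicate term and with single pairs. Without the replicate number, 21 genes were called (0.176% of those tested, with 7 or 0.0585% higher and 14 or 0.117% lower), and all 21 were among the 148. Leaving out replicate pair 2 or pair 3 left 1 gene each time, Dgkk (0.00831% and 0.00864% of those tested), whereas leaving out pair 1 gave 319 calls and leaving out pair 4 gave 1151. DESeq2 called 713 genes (5.96%), which took in all 148, and limma voom called 198 (1.66%), which took in 146. In the plot of fold change by level, the called genes lie from low to high levels, none of the most abundant genes is among them, and the open circles mark the 21.

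**Figure D1:**
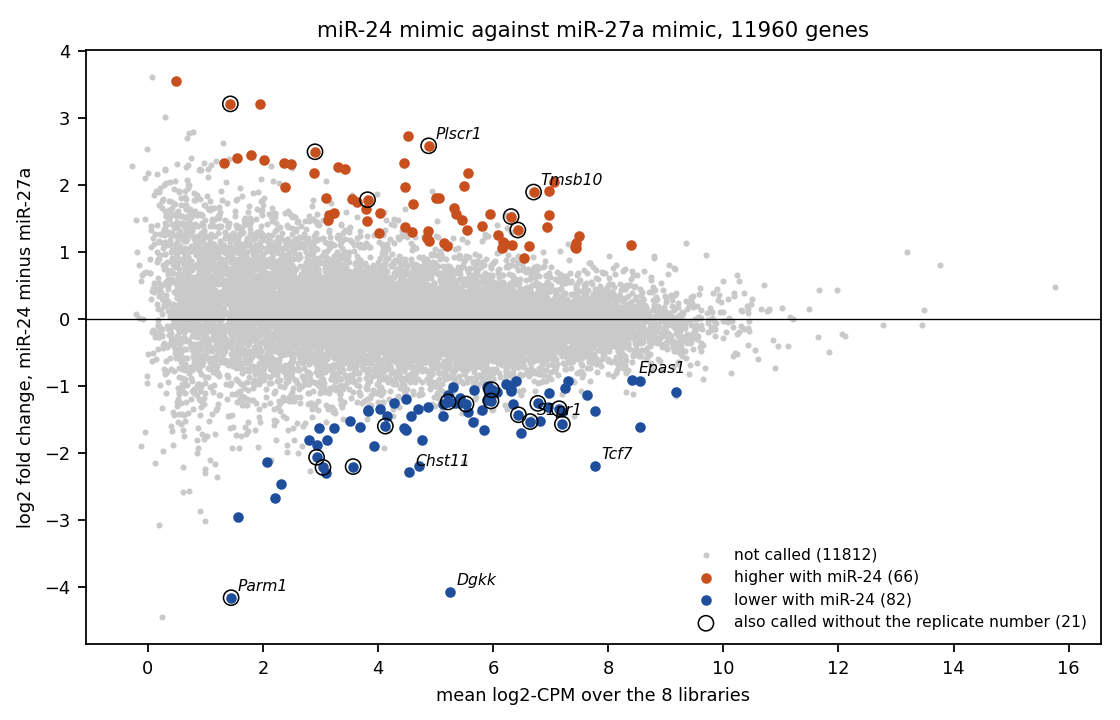
Log2 fold change (miR-24 minus miR-27a) of 11960 genes against their mean log2-CPM over the 8 libraries. Orange points are the 66 genes called higher and blue points the 82 called lower with miR-24, grey points were not called, and open circles mark the 21 genes also called without the replicate number. Dgkk (-4.07) and Parm1 (-4.16) lie lowest among the called genes.

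The most negative fold change among the genes of at least moderate level (mean log2-CPM of 3 or more, without overlap) was that of Dgkk. It encodes a diacylglycerol kinase, an enzyme that turns the lipid messenger diacylglycerol into phosphatidic acid, and it lies on chrX:6779306-6948363. Dgkk had 6.85, 4.03, 11.1 and 23.0 CPM in the miR-24 libraries and 101, 42.0, 370 and 338 CPM in the miR-27a libraries. The highest miR-24 value was thus below the lowest miR-27a value, and both groups varied several-fold within themselves. The fold change was -4.07 ± 0.30 (adjusted p = 0.00207, edgeR), and without the replicate number the adjusted p was 0.05004. Control libraries 2 to 4 had 7.19 to 140 CPM and the miR-23a libraries 5.36 to 32.0 CPM. The first control library, with 51474 reads in genes, is left out of these control ranges.

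Tcf7, which encodes TCF-1, a regulator of memory and naive T cells with a part in early Th2 differentiation, was the gene with the second smallest p. It had 116, 160, 98.9 and 58.7 CPM with miR-24 and 567, 774, 350 and 306 CPM with miR-27a. Every miR-24 library was under every miR-27a library, and the pairs differed by -2.38 to -1.82. The fit gave -2.19 ± 0.19 (adjusted p = 0.00485, edgeR; 0.05004 without the replicate number). The control libraries had 333 to 943 CPM and the miR-23a libraries 269 to 1102 CPM, and all miR-24 levels lay below both ranges. Of the miR-27a libraries, 1 lay below the control range and the others within it. The 3′ UTR searched held no 8mer of either microRNA. Without replicate pair 2, the adjusted p was 0.311.

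S1pr1 encodes the receptor for sphingosine 1-phosphate, through which T cells leave lymph nodes. It had 60.6, 62.5, 54.7 and 57.1 CPM with miR-24 and 196, 204, 133 and 155 CPM with miR-27a. The miR-24 libraries lay close together, and all were far under the miR-27a libraries. The fold change was -1.53 ± 0.18 (adjusted p = 0.0159, edgeR), and the call held without the replicate number (0.0229). Its level was 103 to 127 CPM in the controls and 95.4 to 219 CPM with miR-23a, so the miR-24 libraries were under both. Tcf7 and S1pr1 were the called ones among 20 tested genes of quiescence, memory and lymph node homing, whose median was 0.10 with 12 above 0. S1pr1 lost its call without pair 2 (adjusted p = 0.311) or pair 3 (0.151).

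The other 8 genes of the same rule that were lower with miR-24 were Syt1, Chst11, Bloc1s1, Uaca, Insig1, Ttyh3, G6pdx and Txndc12, with fold changes of -2.29 to -1.66. Chst11, a sulfotransferase that builds chondroitin sulfate, had 5.51, 6.25, 17.6 and 18.2 CPM with miR-24 and 36.1, 30.0, 92.0 and 65.4 CPM with miR-27a. Its level was higher in replicates 3 and 4 of both groups, and its fold change was -2.29 ± 0.24 (adjusted p = 0.0112, edgeR). Bloc1s1, a subunit of a complex of lysosome and organelle traffic, had 2.34, 3.04, 4.60 and 5.19 CPM against 17.3, 20.3, 15.5 and 16.7 CPM. The controls had 10.3 to 16.3 CPM, all miR-24 libraries were below them, and the fold change was -2.21 ± 0.33 (adjusted p = 0.0268; 0.0389 without the replicate number). Uaca had 5.84, 3.62, 6.22 and 6.19 CPM with miR-24, below its controls (7.09 to 13.4 CPM), and 39.0, 18, 21.4 and 25.5 CPM with miR-27a, above them. The change of Uaca was -2.20 ± 0.27 (adjusted p = 0.0168; 0.0389 without the replicate number). Without pair 2, the adjusted p of these 8 genes was 0.311 to 0.317.

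Of the 10 genes with the highest fold changes under the same limits on level and overlap, Plscr1 came first. It encodes a membrane protein that moves phospholipids between the leaflets of the membrane and responds to interferon. Plscr1 had 95.2, 68.2, 77.2 and 53.4 CPM with miR-24 and 10.2, 9.68, 11.2 and 17.2 CPM with miR-27a. The controls had 16.5 to 61.9 CPM, which overlapped both groups, and the miR-23a libraries had 12.4 to 17.9 CPM, near the lower group. The change was 2.59 ± 0.29 (adjusted p = 0.0124, edgeR), and the call held without the replicate number (0.00904) but not without pair 2 (0.311) or pair 3 (0.151).

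Tmsb10, which encodes thymosin beta-10, a small protein that binds actin monomers, had 159, 162, 247 and 252 CPM with miR-24 and 72.6, 42.4, 52.3 and 52.3 CPM with miR-27a. The miR-27a libraries were the low ones here: controls had 217 to 385 CPM and miR-23a libraries 181 to 724 CPM. The change was 1.90 ± 0.23 (adjusted p = 0.0168; 0.0229 without the replicate number). Near-identical copies of this gene exist, and how the counting split reads among them is not given in the sources used here. Cxadr, a cell adhesion and virus receptor, followed the same order, with 30.4, 27.1, 18.2 and 18 CPM against 5.44, 5.53, 5.67 and 10.3 CPM and 21.5 to 31.2 CPM in the controls. Its change was 1.76 ± 0.33 (adjusted p = 0.0434). Epcam, an adhesion protein, had 13.9, 18.2, 34.1 and 31.9 CPM against 3.52, 3.23, 4.11 and 11.2 CPM, beside 11 to 30.5 CPM in the controls. Without pair 2, the adjusted p of these 3 genes was 0.311 to 0.376.

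Pla2g4c, a cytosolic phospholipase, had 20.5, 25.9, 28.6 and 28.2 CPM against 7.35, 8.76, 9.26 and 5.13 CPM, with a change of 1.79 ± 0.27 (adjusted p = 0.0282; 0.0389 without the replicate number). Atf5, a transcription factor of the amino acid and mitochondrial stress responses, had 30.6, 15.9, 30.8 and 13.6 CPM against 6.71, 6.45, 10.1 and 3.21 CPM. In Atf5 the miR-24 libraries lay above most of the others, the controls having 1.09 to 5.15 CPM and the miR-23a libraries 2.63 to 15.8 CPM. Slc7a5, described with the amino acid genes, also belonged to the 10. Psd3, Letm2 and Krtcap2 completed them, with fold changes of 2.27, 1.82 and 1.59, and these 3 lost the call without the replicate number (adjusted p = 0.0515, 0.122 and 0.0815). Letm2 was higher with miR-24 although its 3′ UTR holds a miR-24 8mer. Of the 20 genes, 5 kept the call without the replicate number: Plscr1, Tmsb10, Pla2g4c, Bloc1s1 and Uaca. Without pair 3, the adjusted p of the 20 apart from Dgkk was 0.0732 to 0.306, and without pair 1 or pair 4 all 20 stayed called.

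**Figure D2:**
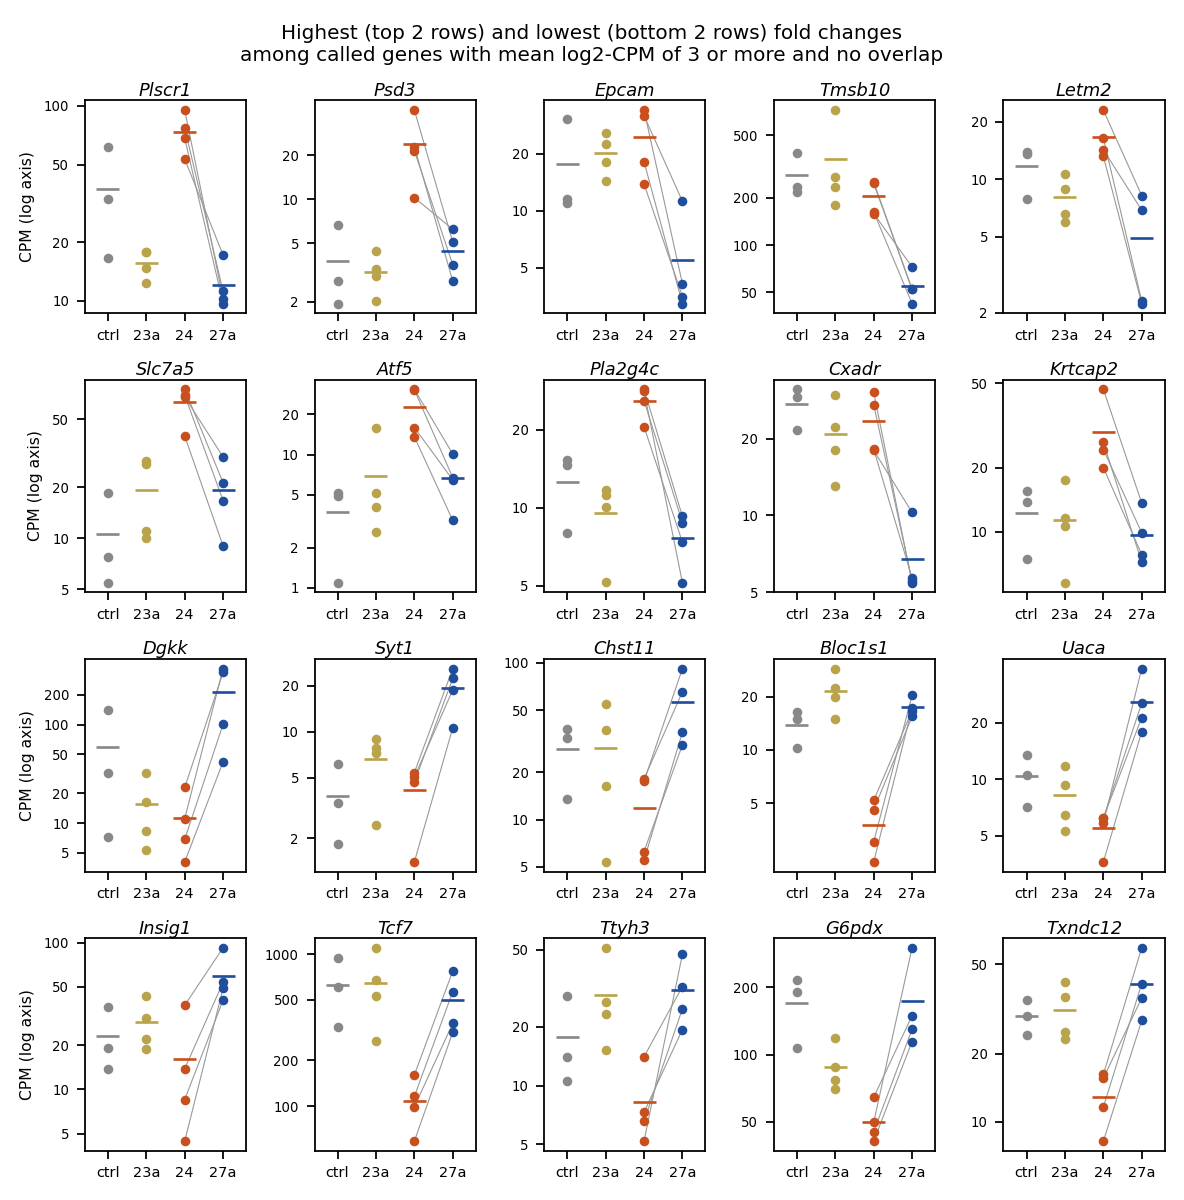
CPM on log axes in the control libraries 2 to 4 (ctrl), the miR-23a libraries (23a), the miR-24 libraries (24) and the miR-27a libraries (27a), for the 10 genes with the highest and the 10 with the lowest fold change among called genes with a mean log2-CPM of 3 or more and no overlap. Points are libraries, bars are group means and grey lines join same-numbered libraries. In all 20 panels the miR-24 and miR-27a points do not overlap, and the controls lie near the higher group for some genes (Tmsb10, Cxadr, Tcf7) and near the lower group for others (Psd3, Syt1).

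Genes with a seed site of one microRNA had medians of opposite sign to those with a site of the other. Among 897 tested genes whose 3′ UTR held an 8mer of miR-24 and none of miR-27a, 3 were called higher and 21 lower (2.34%), 38.6% were above 0 and the median fold change was -0.13. Among 638 genes with an 8mer of miR-27a and none of miR-24, 16 were called higher (2.51%) and 2 lower, 69.0% were above 0 and the median was 0.20. The 9563 genes with neither site had 45 calls higher and 59 lower, 50.2% above 0 and a median of 0.0023, and the 104 genes with both sites had none and a median of 0.080. All 4 same-numbered pairs had the same sign for each single-site class: -0.16 to -0.11 for miR-24 sites and 0.073 to 0.31 for miR-27a sites.

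Genes with sites have longer 3′ UTRs: the median was 2495 bases for miR-24 sites, 2389.5 for miR-27a sites and 1079 for neither. The 1905 genes with no 8mer and a 3′ UTR of at least 2389.5 bases had a median of -0.015 and 48.9% above 0. Their medians in pairs 1 to 4 were 0.12, -0.036, -0.047 and -0.10, so single pairs varied more than the fitted median shows. The medians ordered with the number of sites, at -0.23 for 79 genes with 2 or more miR-24 8mers and -0.14 for 638 genes with 1, and at 0.53 for 20 genes with 2 or more miR-27a 8mers and 0.20 for 512 with 1 (none of these genes held an 8mer or 7mer of the other microRNA). Genes with only a 7mer, the match to bases 2 to 8 without the A, had medians of -0.13 (miR-24, 910 genes) and 0.089 (miR-27a, 914 genes). Over the 4 pairs, these 7mer medians were -0.36 to -0.0077 for miR-24 and -0.036 to 0.18 for miR-27a, whose sign was reversed in pair 4. Read from the calls, 21 of the 82 lower genes (25.6%) and 3 of the 64 higher genes searched (4.69%) held a miR-24 8mer, which 8.94% of all genes searched did. For miR-27a the shares were 16 of 64 higher genes (25.0%) and 2 of 82 lower ones (2.44%), against 6.62% of all. These genes are not independent of each other, and the shares are given as a description. Without the replicate number, 4 genes with a miR-24 site were called lower and 0 higher. Of genes with a miR-27a site, 2 were then called higher and 1 lower. Without pair 2 or pair 3, 1 gene with a miR-24 site (Dgkk) was called lower and 0 with a miR-27a site were called higher.

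**Figure D3:**
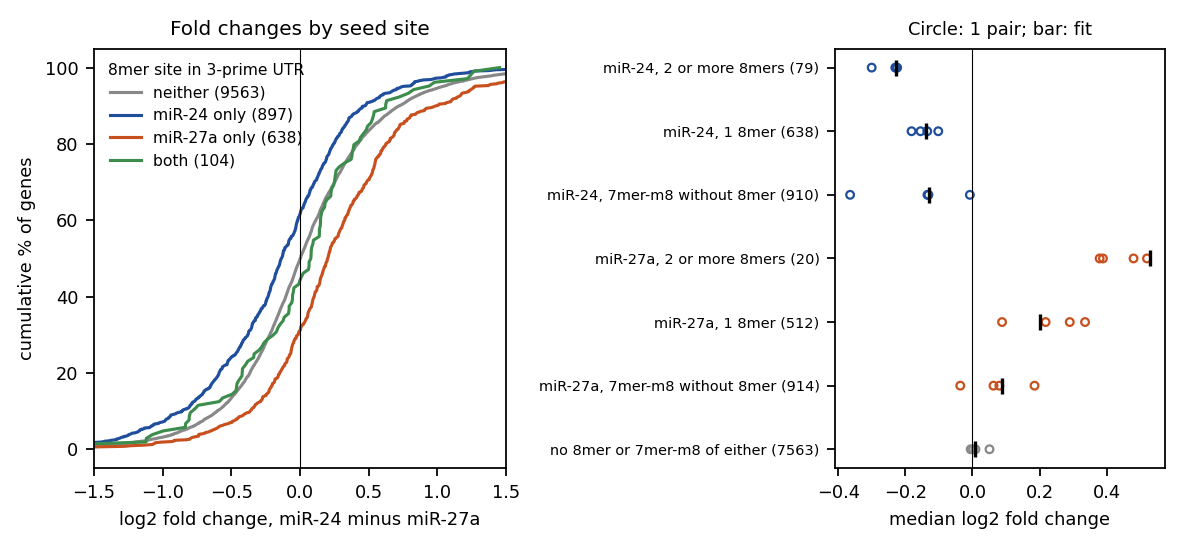
Left, cumulative percentage of genes by log2 fold change (miR-24 minus miR-27a), split by the 8mer sites in the 3′ UTR. Right, median log2 fold change by kind of site, with the fitted median as a bar and each same-numbered pair as a circle. The curve of the 897 genes with only miR-24 8mers lies to the left of the 9563 without either site, and that of the 638 genes with only miR-27a 8mers to the right.

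The site-bearing genes with the smallest p were led by Dgkk, Chst11 and S1pr1 for miR-24, described above, then the uncharacterised gene 2900026A02Rik and Plxnc1, a semaphorin receptor. Plxnc1 had 43.3, 23.0, 22.8 and 32.6 CPM with miR-24 and 126, 93.6, 50.9 and 87.9 CPM with miR-27a, and its change was -1.54 ± 0.21 (adjusted p = 0.0215, edgeR). Its controls had 46.3 to 89.0 CPM, so that all miR-24 libraries were below the control range and 2 miR-27a libraries above it. For miR-27a, Plscr1 and Tmsb10 came first, then Hbegf, Med12l and Hilpda. Hbegf, a growth factor of the EGF family, had 22.9, 41.0, 76.8 and 50.9 CPM with miR-24 and 8.95, 10.1, 27.9 and 12 CPM with miR-27a, with a change of 1.72 ± 0.24 (adjusted p = 0.0215). Its controls had 4.83 to 8.45 CPM, below the miR-27a libraries as well. Med12l, a subunit of the Mediator kinase module, had 34.2, 63.0, 112 and 101 CPM against 9.91, 15.7, 41.7 and 45.5 CPM, and Hilpda, a lipid droplet protein, had 4.51, 10.4, 22.9 and 42.0 CPM against 1.60, 2.31, 6.57 and 5.45 CPM. The controls of Med12l had 23.1 to 55.2 CPM and overlapped both groups. Those of Hilpda had 8.16 to 24.1 CPM, above all its miR-27a libraries. In these last 3 genes the groups overlapped, and the differences lay within pairs, at 1.33 or more for Hbegf, 1.14 or more for Med12l and 1.37 or more for Hilpda. Their adjusted p without the replicate number was 0.129 to 0.230, and that of Plxnc1 was 0.0756. Without pair 2, the adjusted p of all 5 (2900026A02Rik, Plxnc1, Hbegf, Med12l and Hilpda) was 0.311 to 0.317.

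The Th2 cytokines other than Il10 did not pass the test. Il4, which encodes the cytokine that starts and sustains Th2 differentiation, had 11, 29.8, 16.4 and 19.2 CPM with miR-24 and 7.67, 20.7, 19.5 and 29.7 CPM with miR-27a. The groups lay on top of each other, and the change was 0.0057 ± 0.28 (adjusted p = 0.995, edgeR), although Il4 holds a miR-24 8mer near the start of its 104-base 3′ UTR, at chr11:53612554-53612561. Il13, the cytokine of mucus and airway responses, had 15.5, 42.5, 209 and 520 CPM against 24.9, 22.1, 662 and 217 CPM. Replicates 3 and 4 were high and replicates 1 and 2 low in both groups, and the change was -0.033 ± 0.46 (adjusted p = 0.979). Il5, the eosinophil cytokine, had 1.30 to 6.18 CPM and 1.84 to 6.42 CPM. Il9 had the lowest fold change of the 34 Th2 genes tested, -3.02, and did not pass either (adjusted p = 0.0575). These p-values do not show that the levels were the same.

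Il10, an anti-inflammatory cytokine that Th2 cells also make, was higher with miR-24. It had 7.01, 116, 94.4 and 152 CPM with miR-24 and 2.88, 16.6, 21.4 and 81.0 CPM with miR-27a. The first pair was far below the others in both groups, so that the groups overlapped, while each miR-24 library was above its pair. The change was 1.81 ± 0.32 (adjusted p = 0.0389, edgeR), which became 0.454 without the replicate number and 0.353 without pair 2. The controls had 153 to 333 CPM, above all 8 libraries compared. The Il10 3′ UTR searched held no 8mer of either microRNA.

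Among the regulators, Epas1, which encodes the hypoxia-inducible factor HIF-2 alpha, had 125, 331, 219 and 420 CPM with miR-24 and 235, 620, 360 and 893 CPM with miR-27a. The 4 pairs agreed closely, at -1.09 to -0.72, and the change was -0.91 ± 0.18 (adjusted p = 0.0471; 0.370 without the replicate number, 0.382 without pair 2). All 8 libraries were under control libraries 2 to 4 (1287 to 2230 CPM). The shallow first control library had 728 CPM, above every miR-24 library and below the highest miR-27a library. Gata3, the master regulator of Th2 cells, had 89.7 to 271 CPM and 97.5 to 260 CPM with a change of 0.050 ± 0.19 (adjusted p = 0.920). Maf (0.056 ± 0.30), Stat6 (-0.21 ± 0.19), Il4ra (-0.091 ± 0.21) and Nfatc2 (-0.19 ± 0.24) had adjusted p of 0.607 to 0.945. Of 34 Th2 genes tested, 1 was called higher (Il10) and 2 lower (Epas1 and Tcf7), and their median was 0.028.

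Ikzf1 encodes Ikaros, a zinc finger regulator of lymphocytes, and its 3′ UTR holds a miR-27a 8mer at chr11:11772859-11772866. It had 1060, 923, 834 and 831 CPM with miR-24 and 646, 644, 544 and 829 CPM with miR-27a. The groups did not overlap, but replicate 4 of both groups was nearly equal. The change of 0.46 ± 0.20 did not pass (adjusted p = 0.257, edgeR). All 8 libraries were below the controls (1267 to 1606 CPM) and the miR-23a libraries (1259 to 1422 CPM), as the plot of the Th2 genes shows.

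**Figure D4:**
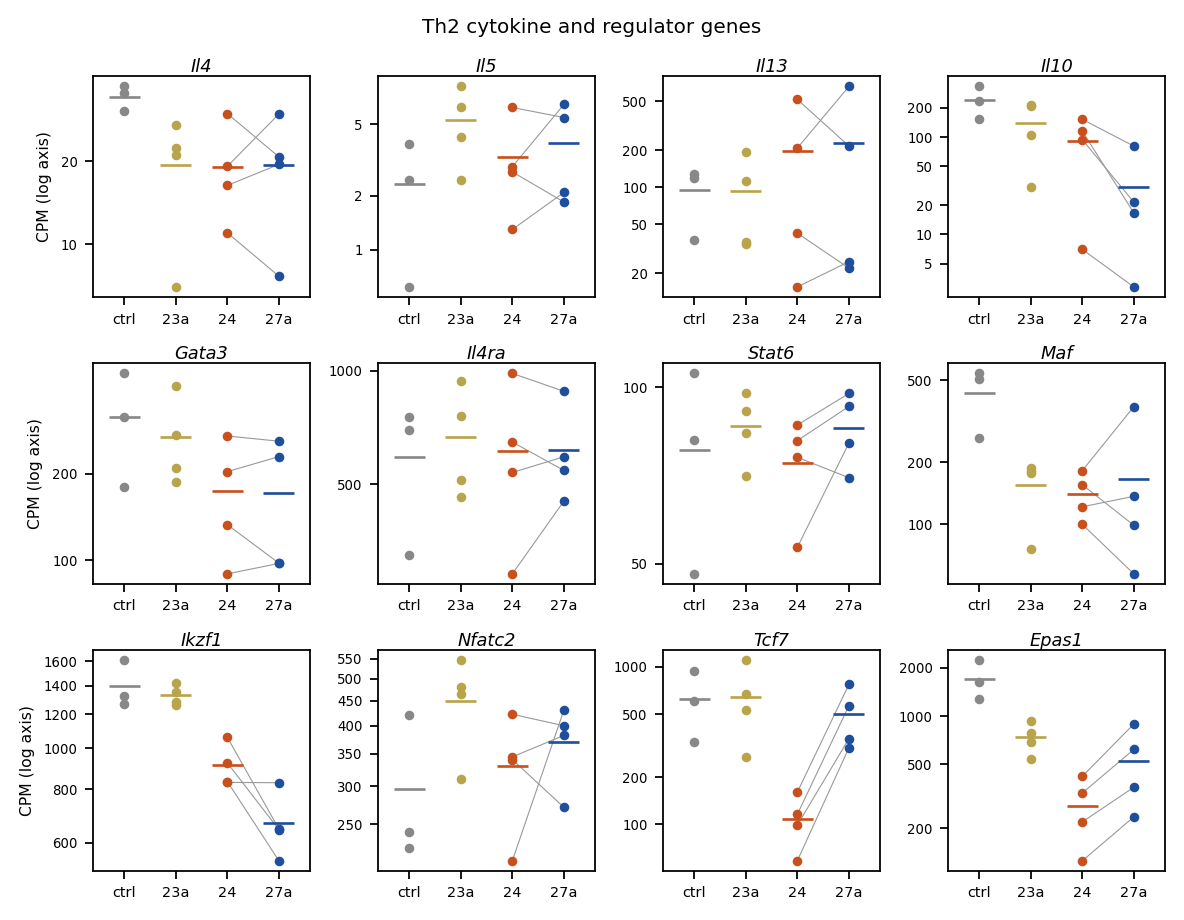
CPM on log axes of 12 Th2 cytokine and regulator genes in the control libraries 2 to 4 (ctrl), the miR-23a libraries (23a), the miR-24 libraries (24) and the miR-27a libraries (27a). Points are libraries, bars are group means and grey lines join same-numbered libraries. Tcf7 and Epas1 are lower and Il10 is higher with miR-24 in all 4 pairs, while Il4, Il5 and Il13 differ in mixed directions.

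The lists of reported targets of the 2 microRNAs had medians of opposite sign. Of all genes tested, 0.686% were called lower, 0.552% were called higher and 52.1% were above 0. The counts of these and the other lists are to be read against those shares, and the lists were chosen with earlier results of these data known. Of 21 tested genes reported as miR-24 targets, 2 were called lower (Insig1 and Acvr1b), none was called higher, and 17 were below 0, with a median of -0.49 (-0.62 to -0.42 over the 4 pairs). Insig1, which holds the sterol sensor SCAP in the endoplasmic reticulum, had 8.52, 4.44, 13.8 and 37.4 CPM with miR-24 and 40.6, 48.9, 53.6 and 92.2 CPM with miR-27a (-2.20 ± 0.34, adjusted p = 0.0282, edgeR, and 0.174 without the replicate number). Control libraries 2 to 4 had 13.7 to 36.6 CPM of Insig1, which overlapped the miR-24 libraries and lay below all miR-27a libraries. The Insig1 3′ UTR searched held no 8mer of either microRNA. Acvr1b, an activin receptor, had 17.9, 10.1, 5.45 and 10.5 CPM against 40.0, 30.9, 12.1 and 28.2 CPM (-1.34 ± 0.24, adjusted p = 0.0389; 0.189 without the replicate number), and without pair 2 the adjusted p of both was 0.311 and 0.356. Acvr1b was lower in every pair although the miR-27a library of replicate 3 was under the first miR-24 library. Among the members that did not pass were the apoptosis gene Bcl2l11 (-0.94, adjusted p = 0.063) and the cell cycle inhibitor Cdkn1b (-0.80, 0.15). Of 24 tested genes reported as miR-27 targets, Il10 was called higher, none was called lower and 18 were above 0, with a median of 0.25 (0.026 to 0.63 over the pairs). The nuclear receptor Pparg (1.16, adjusted p = 0.060) and the cholesterol exporter Abca1 (1.52, 0.051) did not pass. Without pair 4, the median of the miR-24 list was -0.75.

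Metabolic genes differed in both directions. Of 24 tested genes of amino acid transport and tRNA charging, Slc7a5 and Asns were called higher, 17 were above 0 and the median was 0.41. Slc7a5, which imports leucine and other large amino acids, had 68.0, 75.3, 69.5 and 39.9 CPM with miR-24 and 30.1, 21.2, 16.7 and 8.98 CPM with miR-27a (1.80 ± 0.24, adjusted p = 0.0207, edgeR). All miR-24 libraries were above the controls, which had 5.46 to 18.5 CPM. Asns, asparagine synthetase, had 17.4, 11.3, 14.1 and 5.79 CPM against 1.60, 2.31, 5.38 and 0.802 CPM (2.34 ± 0.41, adjusted p = 0.0389). The highest miR-27a library was just below the lowest miR-24 library. Without the replicate number their adjusted p was 0.0795 and 0.122, and without pair 2 it was 0.311 and 0.343.

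G6pdx, which encodes the first enzyme of the pentose phosphate pathway and holds a miR-24 8mer, had 40.9, 45.0, 49.7 and 64.3 CPM with miR-24 and 114, 130, 302 and 149 CPM with miR-27a. The controls had 108 to 215 CPM, above all miR-24 libraries, and the change was -1.71 ± 0.25 (adjusted p = 0.0262, edgeR). Pgk1, a glycolytic kinase with near-identical copies in the genome, had 79.0, 123, 148 and 231 CPM against 227, 310, 519 and 413 CPM (-1.38 ± 0.21, adjusted p = 0.0282). These were the called genes of 25 in glycolysis, the pentose phosphate pathway and pyruvate metabolism, whose median was -0.035. In lipid synthesis, Scd2, which desaturates fatty acids, had 104, 182, 354 and 798 CPM against 37.7, 38.3, 92.2 and 138 CPM (2.05 ± 0.22, adjusted p = 0.0121). Scd2 varied widely among the miR-24 libraries, overlapped between the groups and was higher in each pair. With Insig1 lower and Scd2 higher, the other 21 of 23 tested genes of cholesterol and fatty acid synthesis were not called, and the median was -0.13. The adjusted p of G6pdx, Pgk1 and Scd2 was 0.05004, 0.122 and 0.153 without the replicate number and 0.311 to 0.343 without pair 2.

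Of the 15 chemokine receptor genes tested, 12 were above 0 and the median was 0.66, or 0.40 for the 6 with a mean log2-CPM of at least 3. Cxcr3, a receptor of Th1 cells that T-bet induces, was among those called higher. It had 15.5, 14.1, 4.77 and 0.899 CPM with miR-24 and 4.16, 4.15, 0.299 and 0.160 CPM with miR-27a, from 9 to 171 reads and 1 to 13 reads (2.41 ± 0.48, adjusted p = 0.0494, edgeR). The groups overlapped, each miR-24 library was above its pair, and the adjusted p was 0.357 without the replicate number and 0.353 without pair 2. The 9 CD8 and NK cell markers summed to 23.7 to 116 CPM with miR-24 and 21.8 to 95.0 CPM with miR-27a, with Eomes and Cd8b1 having the highest means in both groups.

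Single members were called in 6 further lists. Egr2, an activation-induced transcription factor, had 25.9, 22.8, 32.6 and 23.8 CPM with miR-24 and 60.4, 42.0, 81.2 and 70.4 CPM with miR-27a (-1.25 ± 0.21, adjusted p = 0.0358, edgeR), while the median of its 16 EGR, NR4A and related genes was 0.41. The miR-24 libraries were near the controls for Egr2 (12.8 to 22.6 CPM). Clcn3, an endosomal chloride transporter placed in the list of calcium and NFAT signalling (28 genes, median -0.12), had 50.9 to 72.2 CPM against 103 to 125 CPM (-0.92 ± 0.18, adjusted p = 0.0484). Eda2r, a TNF receptor family member among 20 p53 targets (median -0.16), had 3.17, 0.575, 7.76 and 9.19 CPM against 6.71, 3.69, 35.8 and 26.8 CPM. Its change was -1.81 (adjusted p = 0.0418, edgeR), the groups overlapped, and its level was higher in replicates 3 and 4 of both. Acvr1b was the called member of 18 TGF-beta receptor and SMAD genes (median 0.020). Rpl23 was the called member of 39 cytosolic ribosomal protein genes, at 369, 230, 236 and 189 CPM against 128, 106, 131 and 107 CPM (1.08 ± 0.19, adjusted p = 0.0401); 32 of the 39 were above 0, with a median of 0.25 and pair medians of -0.16 to 0.69. Mrps33 was that of 28 mitochondrial ribosomal protein genes, at 22.1 to 27.4 CPM against 8.81 to 12.4 CPM (1.29 ± 0.25, adjusted p = 0.0462; median of the list -0.0043). Without the replicate number their adjusted p was 0.05004 to 0.332, and without pair 2 it was 0.311 to 0.388.

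No member was called in the remaining lists by edgeR, although their genes did not all sit evenly about 0. Of all 11960 genes tested, 2110 had an unadjusted p under 0.05, and the counts below are to be read against that share. No list was tested as a set. Of 24 tested genes of mitosis and G2/M, 23 were below 0 (median -0.28; 4 had an unadjusted p under 0.05), and of 25 genes of DNA replication and G1/S, 19 were (median -0.27; 6 under 0.05). The mitosis median was 0.0043 in one pair and as low as -0.51 in another. Of 27 genes of the respiratory chain and ATP synthase, 20 were below 0 (median -0.35; 5 under 0.05), and of 8 CDK inhibitor genes, 6 were (median -0.27; 1 under 0.05). Of 17 NF-kB genes, 15 were above 0 (median 0.13; 2 under 0.05). The 23 type I interferon genes had a median of 0.50 (7 under 0.05), which was 0.046 over the 16 with a mean log2-CPM of at least 3. The medians of the IL-4 receptor and STAT6 axis, the IL-2 receptor and STAT5 axis, T cell receptor and CD28 signalling, the BCL2 family, microRNA processing, integrins and the lysosome were between -0.023 and 0.14. In the plot of the gene lists, most members of every list are grey, that is, not called.

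**Figure D5:**
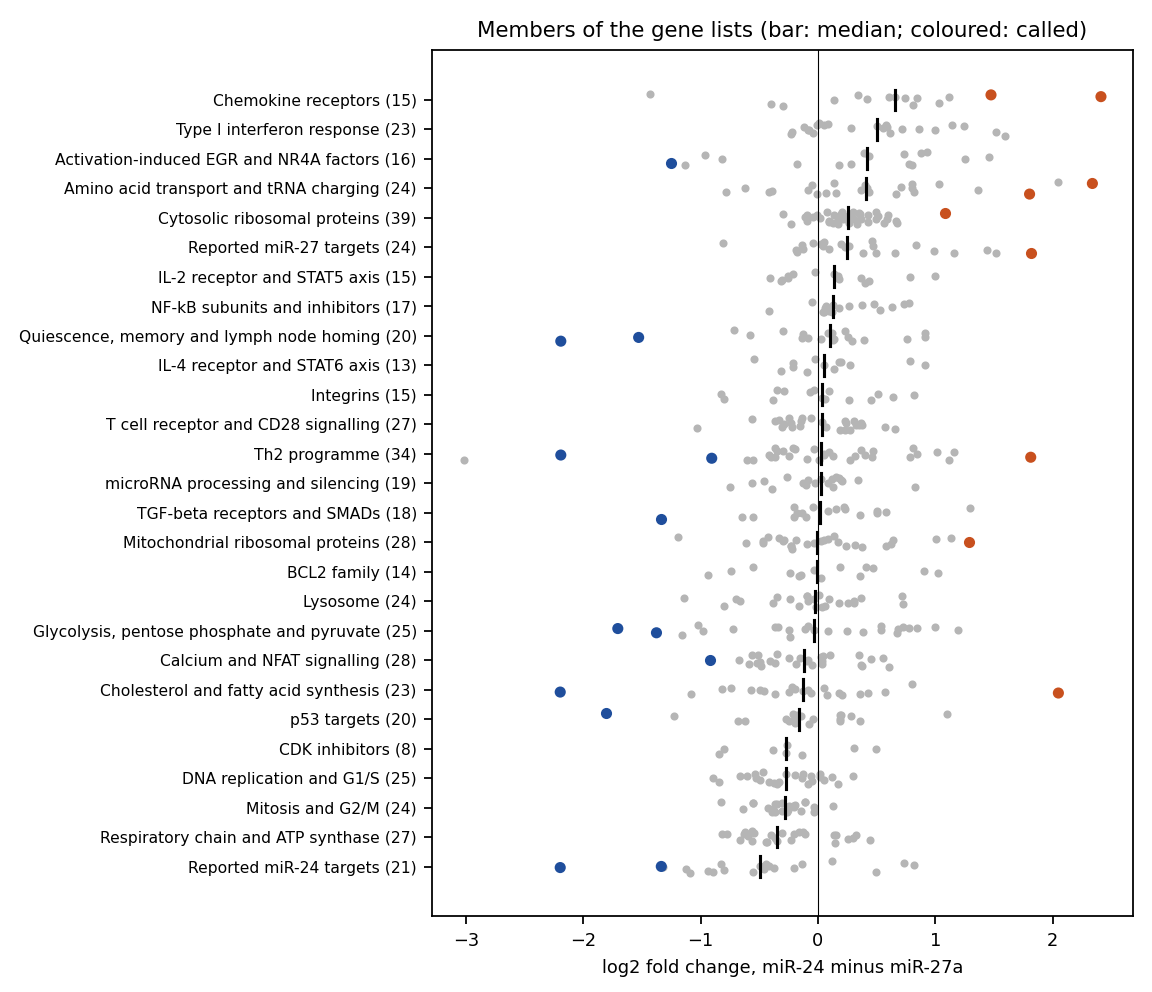
Log2 fold change (miR-24 minus miR-27a) of each tested member of 27 gene lists, sorted by the median (black bar), with the number tested in brackets. Coloured points were called (orange higher, blue lower with miR-24) and grey points were not. The reported miR-24 targets have the lowest median (-0.49) and the chemokine receptors the highest (0.66).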

How the data were processed

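Raw read counts were deposited by the authors as 1 table per library, with 23337 gene symbols. A further 5 summary lines per table entered neither library sizes nor tests (64.6% to 77.4% of all reads in these 8 libraries). Per the labels' protocols, 1 ng of RNA went into the Ovation V2 kit of NuGEN, and single reads of 50 bp were sequenced, 4 libraries per lane. Per the submitters' processing notes, Bowtie2, TopHat, DESeq and mm10 were used. The counter, annotation and strand setting are not given in the sources used here, so overlapping and antisense genes may share reads.

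Groups and replicate numbers came from the titles. The analysis used edgeR 4.0.16 in R 4.3.3 (TMM scaling, filterByExpr by group, robust glmQLFit and glmQLFTest, two-sided, Benjamini-Hochberg threshold 0.05) in the 8 libraries, with group and replicate number as terms. CPM (counts per scaled library size) use TMM, with a prior count of 2 in log2-CPM. In these libraries 1 read is worth 0.0747 to 0.461 CPM. Alternatives were other scalings and filters, DESeq2 1.42.0, limma 3.58.1 voom, all 16 libraries, thinning and leaving libraries out. Libraries of the same group were compared, and no pair among these 8 was near-identical. The test was checked on simulated data.

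Whether replicate numbers pair the libraries was checked on deviations from the group means. Same-numbered libraries correlated at 0.286, 0.380, 0.588 and 0.0202 over all tested genes (replicates 1 to 4), so 3 of 4 passed 0.1 and pairing is not established. The replicate term was part of the comparison's definition and was kept, with values without it beside the results.

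Of the symbols, 20953 matched GENCODE M21 directly and 1883 through older symbols, and 11202 tested genes had a 3′ UTR searched. Named genes were (a) up to 10 highest and 10 lowest fold changes among called genes without overlap whose mean log2-CPM was 3 or more, leaving aside predicted genes and those of small RNAs; (b) Dgcr8, Tbx21, Gata3, Maf, Stat6, Ikzf1, Nfatc2, Il4ra and the cytokine genes Il4, Il5, Il10 and Il13; (c) up to 4 called members of each of 27 lists by smallest p; and (d) for each microRNA, 5 called genes with its 8mer and none of the other. Members, lists and tests were chosen with earlier results of these data known. Some results that these rules select are not reported here.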

Additional observations from a re-analysis of the deposited data

Results flagged for a closer look

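Of 128 groups of 4 libraries checked with Dixon's test, 6 had a library standing apart, and chance gives about 1 in 20. In the miR-27a group, replicate 4 stood above the other libraries for Epcam (11.2 CPM against 3.23 to 4.11 CPM), Cxadr (10.3 CPM against 5.44 to 5.67 CPM) and the summed regulatory T cell markers (7398 CPM against 2729 to 3372 CPM). Replicate 3 stood above them for Hbegf (27.9 CPM against 8.95 to 12 CPM). In the miR-24 group, replicate 2 stood below the others for Uaca (3.62 CPM against 5.84 to 6.22 CPM) and replicate 1 for Dgcr8 (41.7 CPM against 50.5 to 51.9 CPM).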

How the results depend on the processing

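The number of called genes moved with the processing. All 148 called genes that were still tested kept their sign in every alternative fit, except that 147 of 148 did without replicate 2. The alternative fits reuse the libraries by which the 148 genes were chosen, so the kept signs are not separate support for the calls. Against 148 genes called (66 higher, 82 lower), the fit without the replicate block called 21 (7 and 14). Over all 16 libraries, the first control library among them, 572 (233 and 339) were called with the replicate block and 114 (36 and 78) without it. No filter on low counts gave 421 (188 and 233), DESeq2 gave 713 (320 and 393) and thinning every library to 2120408 gene reads gave 97 (47 lower). Upper-quartile scaling, which moved the median of all genes to 0.093, called 80 higher and 59 lower, so that 57.6% of calls were higher, against 44.6%. Leaving out replicates or single libraries gave 0 to 1151 calls (0 to 549 higher, 0 to 602 lower); with 0 calls, 1271 to 1525 genes had an unadjusted p under 0.05. The median of genes with a miR-24 8mer was -0.065 under upper-quartile scaling and -0.079 without a filter, and -0.15 to -0.0994 without single replicates or libraries. That of genes with a miR-27a 8mer was 0.195 to 0.263 without single replicates or libraries. Over 25 settings it was 0.13 to 0.27, and the lowest value came from a wider class, the 1446 genes with an 8mer or 7mer of miR-27a only.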

Other observations

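The genes in this section were chosen after their values were seen. Other genes called higher with miR-24 lay outside the main lists. The granzyme gene Gzmb had 45.5 to 206 CPM with miR-24 and 14.3 to 48.6 CPM with miR-27a (log2 fold change 2.19 ± 0.42 SE, adjusted p = 0.0442, edgeR with the replicate number; 0.0836 without it), beside 25.1 to 35.8 CPM in control libraries 2 to 4. Gzma had 1.67 to 33.7 CPM against 0.461 to 2.24 CPM (3.22 ± 0.61, adjusted p = 0.0435; 0.122 without it), but up to 39.8 CPM in a control. Il18rap, a subunit of the IL-18 receptor, had 67.1 to 80.6 CPM against 22.7 to 40.4 CPM (1.34 ± 0.23, adjusted p = 0.0389; 0.05004 without the replicate number). The activation marker Cd69 had 173 to 271 CPM against 48.9 to 123 CPM (1.56 ± 0.21, adjusted p = 0.0215; 0.0815 without it), and the adhesion receptor Cd2 had 193 to 291 CPM against 88.9 to 143 CPM (1.14 ± 0.20, adjusted p = 0.0389; 0.0592 without it). Cd2 is one of the 9 CD4 T cell markers, of which 7 were below 0. Of the 9 CD8 and NK cell markers, 3 were tested and none of them was called by edgeR (0 had an unadjusted p under 0.05). A further 3 were at 0 in all 8 libraries. Klrk1 and Klrd1, too low to be tested, had 0.835 to 5.18 CPM and 0.167 to 0.575 CPM with miR-24, against 0 to 0.922 CPM and 0 CPM with miR-27a. Ifng and the perforin gene Prf1 were too low to be tested, with at most 0.501 and 5.01 CPM.

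Outside the lists, the lysosomal activator gene Psap was lower with miR-24 in all 4 libraries, at 81.1 to 95.2 CPM against 229 to 282 CPM with miR-27a (-1.57 ± 0.17, adjusted p = 0.0121; 0.00904 without the replicate number), beside 208 to 302 CPM in the controls. The calmodulin gene Calm3 had 116 to 154 CPM against 39.2 to 57.6 CPM (1.53 ± 0.19, adjusted p = 0.0168; 0.0229 without it). The TNF receptor gene Tnfrsf1b, which holds a miR-24 8mer, had 24.5 to 33.9 CPM against 59.6 to 82.8 CPM (-1.27 ± 0.20, adjusted p = 0.0327; 0.0389 without it). The largest change among the called genes was that of the low gene Parm1, at 0 to 1.02 CPM against 7.05 to 21.2 CPM (-4.16 ± 0.60, adjusted p = 0.0253; 0.0389 without it). None of these genes stayed called without replicate pair 2 or pair 3.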
